A study of Canis lupus familiaris with 42 samples.

Results

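The genes described here are 7 that the glucocorticoid receptor controls or that encode the receptor itself, out of 15115 genes measured with a named probe set. They are NR3C1, FKBP5, TSC22D3, ZBTB16, KLF9, DUSP1 and SGK1. They were chosen by name as known glucocorticoid-responsive genes, and each gene was read from the probe set that carries its symbol alone and had the highest mean over all 42 arrays. All 7 were measured.

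The study sampled sarcomas that arose spontaneously in dogs, once after and once before a first hyperthermia session given alongside radiotherapy, and profiled total RNA on an Affymetrix canine expression array. The series design speaks of 22 tumours, of which 21 with both arrays were analysed here. The group after treatment (21 arrays) carries hyperthermia as its treatment label, and the group before treatment (21 arrays) carries none. Within each pair the arrays share a tumour code in their titles, and tumours are numbered 1 to 21 below as names only. The labels give no time between hyperthermia and the later sample and do not say whether radiation had been given by then. They name no glucocorticoid drug, anaesthetic or untreated repeat sample. Nor do they tie tumours to single dogs, and the p-values below measure the spread between these 21 tumours, which may not be independent animals.

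Glucocorticoids are steroid hormones that cross the cell membrane and bind the glucocorticoid receptor, which is held in the cytoplasm by HSP90 and its partner proteins. The bound receptor moves to the nucleus, where it raises some genes through DNA elements in or near them and lowers many inflammatory genes. Cortisol released under stress and steroid drugs both act this way, in tumour cells as well as in immune and stromal cells. Several of the genes here, above all DUSP1 and SGK1, also answer to heat, growth factors, osmotic stress or cytokines without any steroid.

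Levels are given as log2 values after RMA, the authors' normalization, so a difference of 1 is a 2-fold difference. Over the whole array the values ran from 2.13 to 14.6. A change is the level after minus the level before in the same tumour. A gene was called changed where limma with the tumour as a block gave an adjusted p under 0.05 over all 42924 probe sets. The mesenchymal marker VIM lay between 13.62 and 14.32 after hyperthermia and between 13.23 and 14.24 before it. COL1A1, a fibrillar collagen gene, lay between 11.25 and 14.39 after and between 11.88 and 14.34 before, both in the upper part of the array's range throughout. EPCAM, an epithelial marker, had a median of 3.01 after and 3.14 before, with a highest value of 7.69 after and 5.87 before.

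The arrays also fell into 2 technical batches by the level of the poly-A control transcripts, which are added to an RNA sample when it is labelled. The spiked batch held 9 tumours and the unspiked batch held 12, and the labels name no batch. A tumour was placed by the mean of its 2 arrays, so both share a batch by construction. Tumour 13, placed in the unspiked batch, had a control level of 3.83 after and 5.01 before. The contrast between 3 prime and 5 prime probe sets of the actin and GAPDH controls, a measure of RNA integrity, changed by a mean of 0.13 on the log2 scale. In the spiked batch it changed by 0.38 and rose in 8 of 9 tumours, and in the unspiked batch it changed by -0.05 and rose in 5 of 12.

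Of the 7 genes, SGK1 alone passed the test after hyperthermia, where 7.15% of all named genes passed in either direction and 4.02% passed as higher. No member passed as lower, against 3.13% of named genes. At an unadjusted p under 0.05 the count was 2 of 7, and the share of all named genes at that level is not given here. Each of the 7 genes was higher in some tumours and lower in others.

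**Figure D1:**
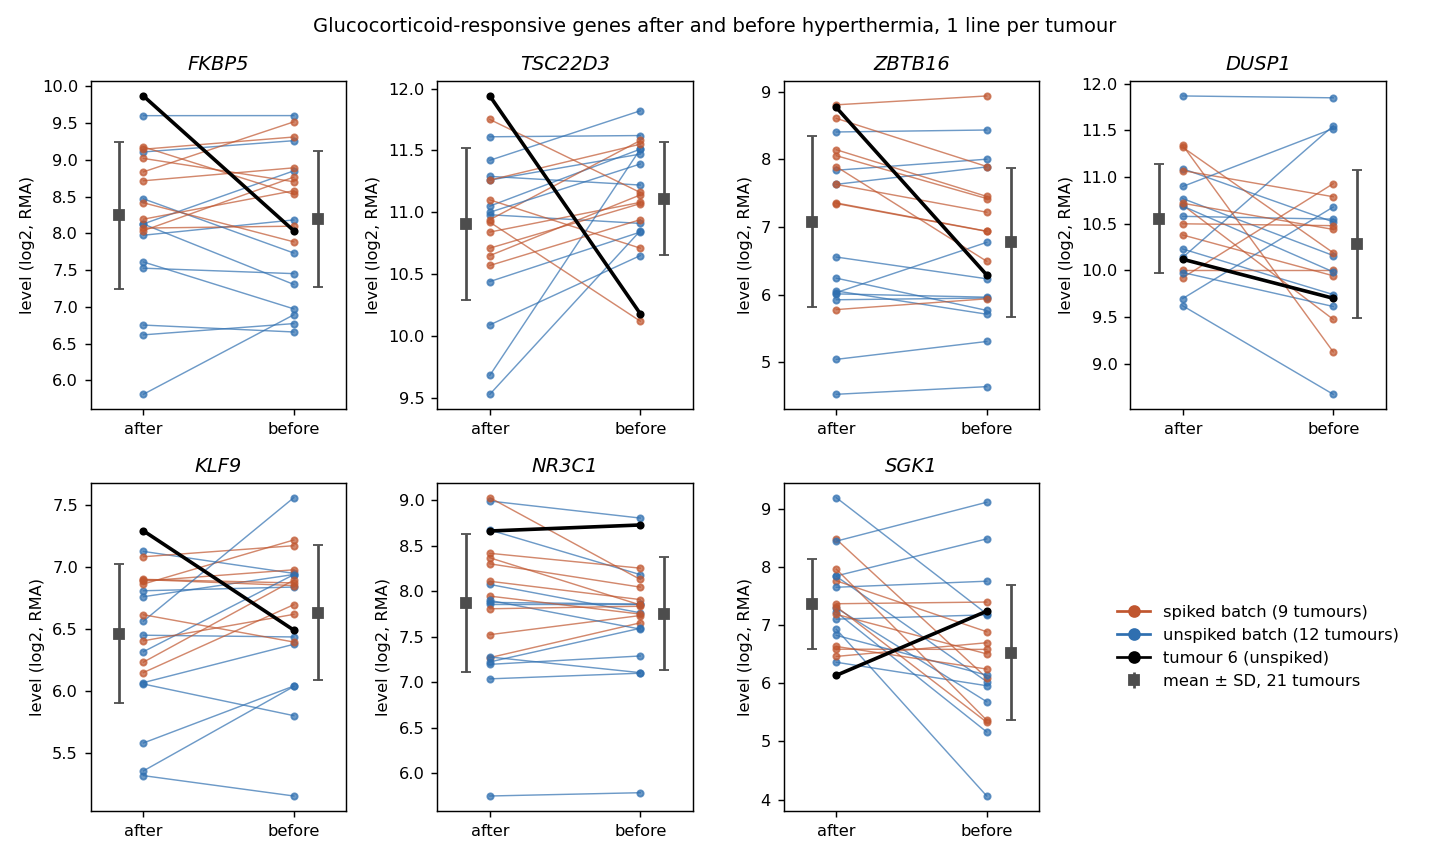
Level (log2, RMA) of each of the 7 genes on the vertical axis, after hyperthermia on the left and before it on the right of each panel, with 1 line per tumour. Orange lines are the 9 tumours of the spiked batch, blue lines the 12 of the unspiked batch, the black line is tumour 6, and grey squares with bars are the mean ± SD over 21 tumours. The groups overlap in every panel, and SGK1 is the gene whose mean differs most, 7.36 after and 6.53 before.

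NR3C1 encodes the glucocorticoid receptor, on which the response of the other genes to the hormone depends. Its level after hyperthermia was lowest at 5.75, had a median of 7.90 and was highest at 9.03. Before hyperthermia these values were 5.79, 7.84 and 8.80. The receptor transcript thus lay in the same range in both groups, with tumour 4 lowest in each. NR3C1 averaged 7.87 ± 0.76 after and 7.75 ± 0.62 before (SD, n = 21 each). The mean change was 0.12 ± 0.06 (SE), with a 95% interval from -0.01 to 0.25 and a limma adjusted p of 0.329, higher in 12 of 21 tumours. The single changes ran from -0.38 in tumour 11 to 0.90 in tumour 21. Its probe sets did not move together: the other 2 changed by means of -0.01 and 0.10, and their changes over tumours correlated with those of the first at r = 0.09 and r = 0.55.

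FKBP5 encodes a cochaperone of HSP90 that lowers the affinity of the receptor for its hormone, and since the receptor induces it, the gene forms a feedback loop. Its level after hyperthermia was lowest at 5.81, had a median of 8.19 and was highest at 9.87. Before hyperthermia the lowest, median and highest levels were 6.66, 8.18 and 9.60. The medians were nearly equal and the range was wider after treatment at both ends. FKBP5 averaged 8.25 ± 1.0 after and 8.19 ± 0.92 before (SD, n = 21 each). Its mean change was 0.06 ± 0.13 (SE), with a 95% interval from -0.22 to 0.33 and a limma adjusted p of 0.876, higher in 9 of 21 tumours. The direction of this mean rests on tumour 6, where FKBP5 was higher by 1.83, since the mean without that tumour was -0.03. At the other end tumour 17 changed by -1.08, and both probe sets of the gene moved alike over tumours (r = 0.92).

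TSC22D3 encodes GILZ, a leucine zipper protein that binds NF-kappaB and AP-1 and carries part of the anti-inflammatory action of glucocorticoids. After hyperthermia its lowest, median and highest levels were 9.53, 10.98 and 11.94. Before hyperthermia they were 10.12, 11.14 and 11.82. The later samples reached both lower and higher than the earlier ones. TSC22D3 averaged 10.91 ± 0.61 after and 11.11 ± 0.46 before (SD, n = 21 each). The mean change was -0.20 ± 0.15 (SE), with a 95% interval from -0.50 to 0.10 and a limma adjusted p of 0.495. It was higher in 6 of 21 tumours and lower in 15, from -1.82 in tumour 13 to 1.76 in tumour 6. The second probe set of the gene gave -0.25 and followed the first over tumours (r = 0.91).

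ZBTB16 encodes PLZF, a zinc finger transcription factor whose transcript is among the more strongly hormone-induced ones in several human tissues. Its lowest, median and highest levels were 4.53, 7.36 and 8.81 after hyperthermia. They were 4.64, 6.77 and 8.94 before it. Tumours differed far more from each other than the groups did, with tumour 4 lowest and tumour 11 highest in both. ZBTB16 averaged 7.08 ± 1.26 after and 6.77 ± 1.1 before (SD, n = 21 each). Its mean change of 0.31 ± 0.14 (SE), higher in 12 of 21 tumours, had a 95% interval from 0.03 to 0.59. The unadjusted p was 0.0334 and the limma adjusted p 0.206, so the gene did not pass. Changes ran from -0.74 in tumour 13 to 2.47 in tumour 6. A second, dimmer probe set gave a mean change of 0.00, changed by 0.21 in tumour 6 and followed the first at r = 0.35.

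KLF9 encodes a Krüppel-like transcription factor that the receptor induces directly. Its lowest, median and highest levels were 5.32, 6.56 and 7.29 after hyperthermia and 5.16, 6.84 and 7.56 before it. KLF9 averaged 6.46 ± 0.56 after and 6.63 ± 0.54 before (SD, n = 21 each). The groups overlapped over most of their range. The mean change was -0.17 ± 0.08 (SE), with a 95% interval from -0.34 to 0.01 and a limma adjusted p of 0.279, higher in 8 of 21 tumours. No tumour reached a 2-fold change, the extremes being -0.99 in tumour 16 and 0.80 in tumour 6. KLF9 had 1 probe set, so its values had no second reading.

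DUSP1 encodes a phosphatase that switches off the stress-activated MAP kinases p38 and JNK, and it is induced within minutes by many stimuli besides glucocorticoids. Its lowest, median and highest levels were 9.62, 10.58 and 11.87 after hyperthermia. They were 8.67, 10.19 and 11.85 before it. The gene was strongly expressed in every array, and tumours 4 and 5 marked the low and the high end in both groups. DUSP1 averaged 10.56 ± 0.59 after and 10.28 ± 0.79 before (SD, n = 21 each). It was higher in 17 of 21 tumours, yet the mean change of 0.27 ± 0.16 (SE) had a 95% interval from -0.07 to 0.61 and a limma adjusted p of 0.391. The 4 tumours in which it was lower were 11, 13, 15 and 17, by -1.01, -1.40, -0.62 and -0.98. Its highest change was 2.22, in tumour 19, while the rises in tumours 3, 5, 8 and 20 were 0.03 or less. The other probe sets of DUSP1 gave mean changes of 0.05 and 0.23, higher in 14 and 16 of 21 tumours. Over tumours they followed the first at r = 0.89 and r = 0.98.

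SGK1 encodes a serine/threonine kinase that regulates ion channels and transporters and shares many substrates with AKT, and serum, cell shrinkage and cytokines induce it as well as steroids. Its lowest, median and highest levels were 6.14, 7.29 and 9.19 after hyperthermia. Before hyperthermia they were 4.06, 6.51 and 9.11. The low end of the range was thus higher after treatment while the top was nearly the same, and the groups overlapped. SGK1 averaged 7.36 ± 0.77 after and 6.53 ± 1.16 before (SD, n = 21 each). It rose by 0.83 ± 0.24 (SE) on the log2 scale, which is 1.78-fold, with a 95% interval from 0.35 to 1.32 and a limma adjusted p of 0.0359. The rise was found in 14 of 21 tumours.

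The SGK1 rise was uneven. In 8 tumours it was at least 2-fold, namely tumours 1, 2, 3, 7, 10, 16, 18 and 21. Among these tumour 16 had the largest change, with a level of 6.93 after and 4.06 before. Tumour 10 had 8.47 after and 6.09 before, and tumour 21 had 7.96 after and 5.37 before. In tumour 6 alone SGK1 was at least 2-fold lower, with 6.14 after and 7.24 before. Tumours 13 and 15, which had 2 of the highest levels before treatment, had 7.84 after and 8.48 before, and 8.44 after and 9.11 before. A change contains the level before treatment, so the link between a low starting level and a large rise is partly built in and was not tested.

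Both other SGK1 probe sets moved the same way, by 0.41 (limma adjusted p = 0.0619) and 0.63 (adjusted p = 0.0852), each higher in 16 of 21 tumours, and neither passed. The probe set used is of a class that can also bind transcripts of related genes. Within the batches SGK1 changed by 0.96 in the spiked one, higher in 7 of 9 tumours (limma adjusted p = 0.0933), and by 0.74 in the unspiked one, higher in 7 of 12 (adjusted p = 0.391). The difference between batches was 0.22 (limma adjusted p = 0.954). The call was close to the threshold: it was lost without tumour 1, 2, 3, 7, 10, 12, 16, 18 or 21, where the change stayed between 0.73 and 0.83 and the limma adjusted p reached 0.0695. It was also lost with the 3 prime to 5 prime contrast as a covariate, where the change was 0.70 (limma adjusted p = 0.0901). With the tumour block left out the limma adjusted p was 0.582.

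The SGK1 change followed markers of neutrophils across tumours. The mean change of 7 measured neutrophil markers, which are S100A8, S100A9, CSF3R, LCN2, MMP8, MMP9 and TREM1, correlated with the SGK1 change at r = 0.825 (rho = 0.858) over 21 tumours. The permutation p was 1e-05, the smallest that 100000 permutations can give, and 0.00063 after adjustment over 63 relations of a member with a marker list or the 3 prime to 5 prime contrast. Within the spiked batch r was 0.776 and within the unspiked batch 0.851. Without tumours 16 and 21, the farthest from the median SGK1 change, it was 0.808. None of the other 62 relations passed. With the same neutrophil mean, FKBP5 had r = -0.02 over 21 tumours, 0.192 without tumour 6, 0.734 in spiked tumours and -0.257 in unspiked ones. ZBTB16 had 0.01 over all, 0.299 without tumour 6, 0.568 spiked and -0.182 unspiked. For TSC22D3 these values were 0.06, 0.290, -0.05 and 0.08, and for KLF9 -0.03, 0.141, 0.181 and -0.09. The values near 0 of FKBP5 and ZBTB16 thus combine batches of opposite sign and rest in part on tumour 6, and their difference from the SGK1 value was not tested. DUSP1 had r = 0.423 with it (adjusted permutation p = 0.993). These relations were chosen after the data had been seen.

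Of the 7 neutrophil markers 3 passed as higher after hyperthermia, where 4.02% of named genes did. TREM1 rose by 0.61, LCN2 by 0.82 and S100A9 by 1.08. The markers had a median change of 0.61 over the 7 against 0.01 over all named genes. Their mean level per array ran from 4.67 to 7.65 after and from 4.50 to 8.54 before. TREM1 is a receptor on neutrophils and monocytes, LCN2 an iron-trapping granule protein and S100A9 a calcium-binding protein abundant in neutrophil cytoplasm. The S100A9 call was lost when any 1 of 15 tumours was left out, that is any but 6, 8, 9, 11, 13 and 15, with a limma adjusted p up to 0.0862. The LCN2 call was lost without tumour 2, 3, 10, 12, 16 or 21, and that of TREM1 in 0 of 21 cases. Of the other settings tried, S100A9 missed the threshold in 9 of 14, LCN2 in 6 of 13 and TREM1 in 3 of 14. MMP8, a collagenase of neutrophil granules, averaged 3.06 after and 3.01 before, in the low part of the array's range. In bulk tissue a change in the number of cells of a type and a change in RNA per cell cannot be told apart. The part of neutrophils in the SGK1 result was not tested.

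**Figure D2:**
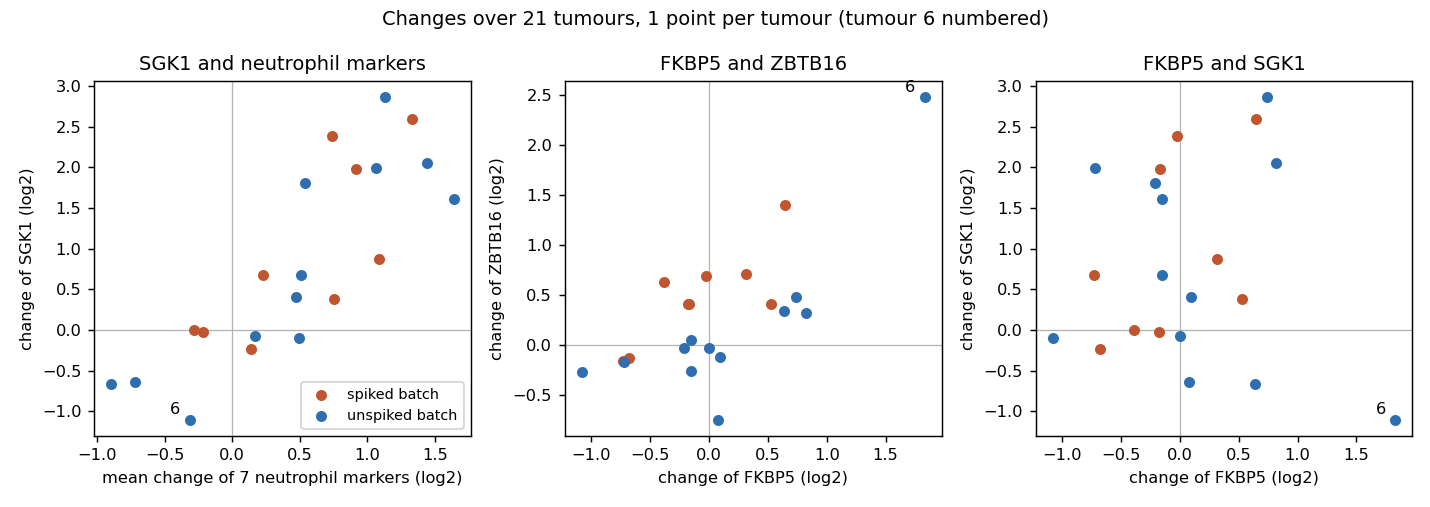
Changes (log2, after minus before) per tumour, with 1 point per tumour, orange for the spiked and blue for the unspiked batch, and tumour 6 numbered. SGK1 on the vertical axis rises with the mean change of 7 neutrophil markers on the left (r = 0.825), ZBTB16 rises with FKBP5 in the middle (r = 0.728), and SGK1 against FKBP5 is on the right (r = -0.02, and 0.290 without tumour 6).

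None of the 7 members passed within a batch alone, and the share of all named genes that passed there is not given here. In the unspiked batch an unadjusted limma p of 0.00026, that of ARPC1B, gave a limma adjusted p of 0.151. The count of 0 thus says little about the members themselves. FKBP5 changed by -0.07 in spiked tumours and 0.16 in unspiked ones, and TSC22D3 by -0.07 and -0.31 in the same order. ZBTB16 changed by 0.49 in the spiked batch, higher in 7 of 9 tumours (SE 0.13, limma adjusted p = 0.0658), and by 0.17 in the unspiked batch, higher in 5 of 12 (SE 0.20, adjusted p = 0.806). DUSP1 changed by 0.51 in spiked tumours and 0.10 in unspiked ones, KLF9 by -0.18 and -0.16, and NR3C1 by 0.18 and 0.07. No member passed the test of a difference in change between batches, with limma adjusted p-values from 0.832 to 0.986, and over the whole array 0.00233% of probe sets passed that test. Mean levels by batch are given without a test. FKBP5 averaged 8.62 ± 0.46 in spiked and 7.97 ± 1.21 in unspiked samples after hyperthermia, and 8.70 ± 0.52 against 7.81 ± 1.0 before (SD, n = 9 and 12). ZBTB16 averaged 7.74 ± 0.89 in spiked and 6.59 ± 1.31 in unspiked samples after, and 7.25 ± 0.85 against 6.42 ± 1.15 before. KLF9 averaged 6.67 in spiked and 6.31 in unspiked samples after, and 6.85 against 6.46 before. For NR3C1 the means were 8.09 and 7.71 after, and 7.91 and 7.64 before.

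The members' changes varied more between tumours than those of most genes. The SD of the change over 21 tumours was 1.19 for SGK1, a spread larger than that of 99.5% of named genes. For DUSP1 it was 0.82 (larger than 97.7% of genes), for TSC22D3 0.73 (96.4%), for ZBTB16 0.68 (95.5%) and for FKBP5 0.66 (95.1%). The median gene had 0.28. KLF9, with 0.41, stood above 80.5% of genes, and the receptor itself, with 0.30, lay near the middle at 56.9%. These percentages are a description, with genes not matched for level.

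**Figure D3:**
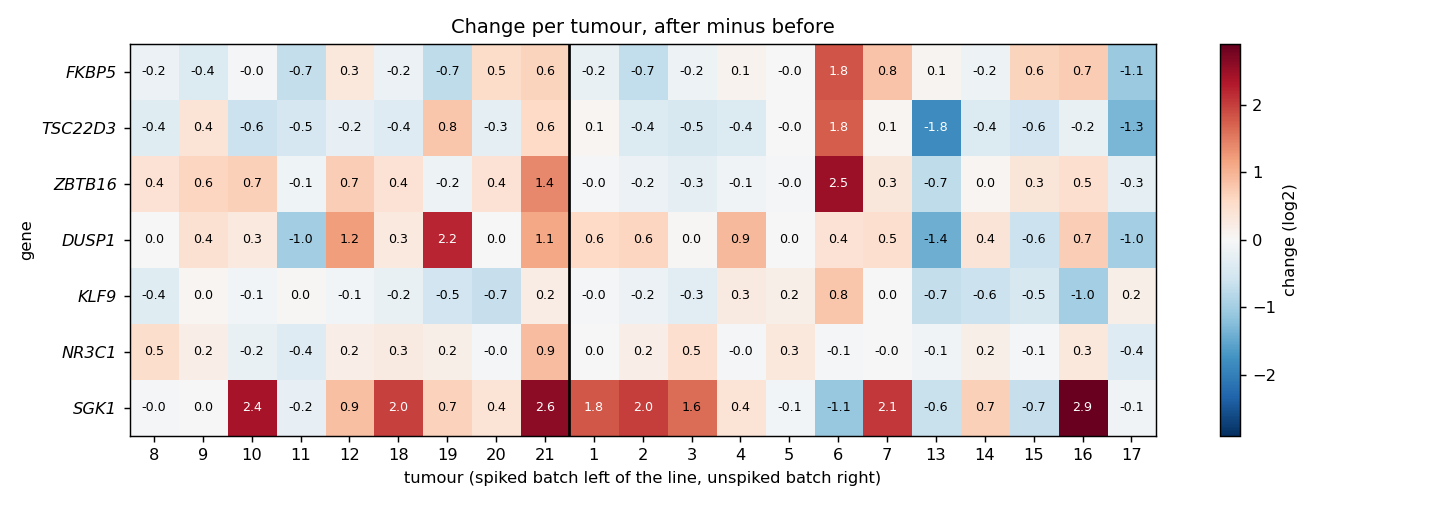
Change of each gene (rows) in each tumour (columns, spiked batch left of the line and unspiked batch right of it) as log2 after minus before, printed in each cell and coloured red where higher and blue where lower after hyperthermia. Tumour 6 is red for FKBP5, TSC22D3 and ZBTB16 and blue for SGK1, tumour 21 is red in all 7 rows, and tumours 13 and 17 are blue in most.

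Tumour 6 stood out. Its ZBTB16 level was 2.47 higher after hyperthermia, the 7th largest rise of 15115 genes in that tumour. FKBP5 was higher by 1.83 (rank 26) and TSC22D3 by 1.76 (rank 28). The classical hormone targets thus held some of the top ranks of this one tumour. Second probe sets of FKBP5 and TSC22D3 gave 2.03 and 1.78, but the second, dimmer one of ZBTB16 gave 0.21. KLF9 was higher by 0.80 and DUSP1 by 0.42. NR3C1 changed by -0.07 and SGK1 by -1.10, opposite to the other targets. These values depend on the probe set. The other SGK1 probe sets changed by -0.004 and -0.93, and the other NR3C1 probe sets by 0.64 and 0.16. All of these are single pairs of arrays with no replicate.

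Other glucocorticoid-induced genes moved with them in tumour 6. Of 40 further measured genes known to be induced by the hormone, 11 were at least 2-fold higher and 0 at least 2-fold lower, where 1.04% of all named genes were at least 2-fold higher and 1.46% lower. Their median change of 0.39 was the highest of the 21 tumours, and 12 of the 40 had their largest change there. Named after their values were seen, these included PDK4, a kinase that restrains glucose oxidation, at 2.56 (rank 4 of 15115). GLUL, the glutamine synthetase, was higher by 2.53 (rank 5), the transcription factor FOXO3 by 1.93 and TXNIP, an inhibitor of thioredoxin, by 1.69. HSD11B1, the enzyme that regenerates active cortisol inside cells, was higher by 1.40 (rank 56). Of 16 inflammatory genes that glucocorticoids lower, 1 was at least 2-fold higher in this tumour and 2 were at least 2-fold lower, with a median change of -0.05. The one higher was MMP1, at 1.24, and those lower were CCL2, a monocyte-attracting chemokine, at -1.82, and IL1A, at -1.20.

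The opposite picture was found in tumour 13. There TSC22D3 changed by -1.82, DUSP1 by -1.40, ZBTB16 by -0.74, KLF9 by -0.68 and SGK1 by -0.64, while FKBP5 changed by 0.07. Of the 40 other induced genes 11 were at least 2-fold lower and 0 at least 2-fold higher, where 1.88% of named genes were lower and 2.92% higher by that much. PDK4 and NFKBIA were each lower by the largest amount of any tumour, at -2.62 and -2.61. Tumour 13 also had the largest change of the 3 prime to 5 prime contrast, with 0.66 after and 1.69 before, and its part in these values was not tested. In tumour 15, 9 of the 40 were at least 2-fold lower and 0 at least 2-fold higher, where 2.77% of named genes were lower and 2.47% higher by that much. FKBP5 was 0.64 higher there and TSC22D3 changed by -0.56. Counts of at least 2-fold higher genes near that of tumour 6 were found in 3 other tumours. In tumour 1, 9 of the 40 were higher and 2 lower, where 3.04% of named genes were higher by that much. In tumour 7 they were 8 and 0 (1.36% of named genes higher), and in tumour 10 they were 8 and 1 (2.03% higher).

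Tumour 17 had the lowest FKBP5 change and also low TSC22D3, at -1.32, and DUSP1, at -0.98. Tumour 21 was the one tumour with all 7 members higher, among them SGK1 by 2.59, ZBTB16 by 1.40 and DUSP1 by 1.12. Its 3 prime to 5 prime contrast was 1.30 after and 0.71 before. In tumour 19 DUSP1 was higher by 2.22 (rank 13 of 15115) and TSC22D3 by 0.80, while FKBP5 changed by -0.73. Tumour 5 hardly changed at all, with 0.0397% of named genes at least 2-fold higher and 0.0529% lower, and NR3C1, at 0.31, and KLF9, at 0.18, changed most among the members.

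**Figure D4:**
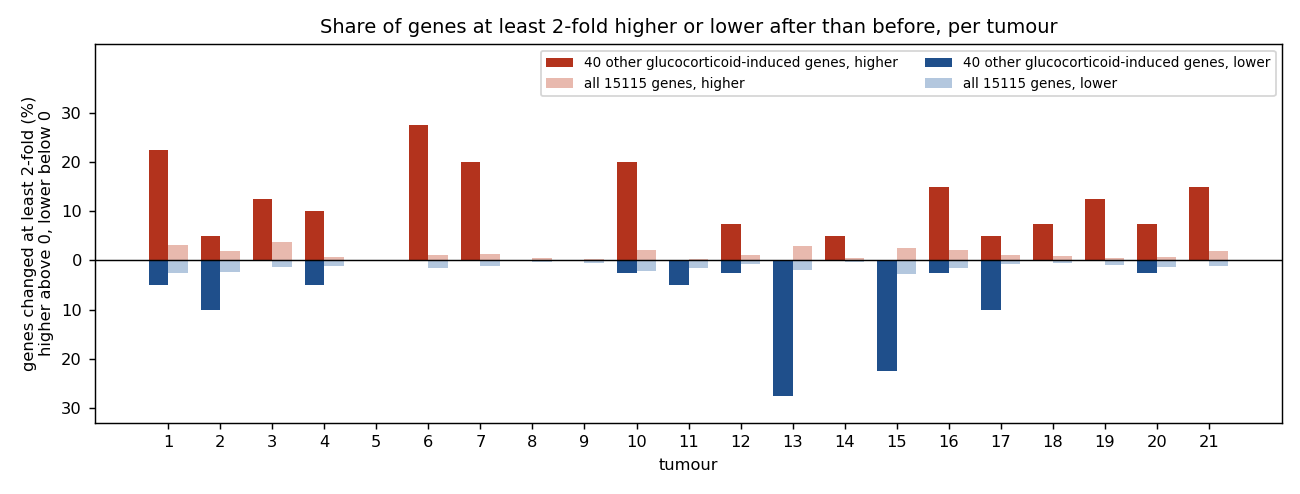
Share of genes (%) at least 2-fold higher (upward bars) or lower (downward bars) after than before hyperthermia in each tumour, dark bars for 40 other glucocorticoid-induced genes and pale bars for all 15115 named genes. Tumour 6 has 11 of the 40 higher, tumour 1 has 9 and tumours 7 and 10 have 8 each, and tumours 13 and 15 have 11 and 9 of the 40 lower, above the share of all genes in each.

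The members' changes were related in part. Over 21 tumours and 21 pairs of members, 3 pairs passed by Pearson's r after adjustment. FKBP5 and ZBTB16 had r = 0.728 (permutation p = 0.00043, adjusted 0.00451), and rho = 0.555 (adjusted 0.0693). The value of r was 0.797 in spiked tumours and 0.808 in unspiked ones, 0.517 without tumour 6 and 0.476 without tumours 6 and 17. In the spiked batch alone 0 of the 21 pairs passed, and without tumour 6 only 1 did. TSC22D3 and ZBTB16 had r = 0.740 (adjusted permutation p = 0.00451) and rho = 0.521 (adjusted 0.0883). This one rests on few tumours, since r was 0.137 in the spiked batch, 0.885 in the unspiked batch and 0.356 without tumours 6 and 13. TSC22D3 and DUSP1 had r = 0.651 (adjusted permutation p = 0.0148) and rho = 0.632 (adjusted 0.0344), and this pair was as close without tumours 6 and 13 (0.733) and in either batch (0.741 and 0.643).

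No relation of the SGK1 change with FKBP5, TSC22D3 or ZBTB16 passed. It had r = -0.02 with that of FKBP5, 0.03 with TSC22D3 and 0.01 with ZBTB16 over 21 tumours (adjusted permutation p = 0.964 for each), and the rho values were 0.105, 0.204 and 0.232. These r values near 0 rest on tumour 6, without which they were 0.290, 0.364 and 0.45. In spiked tumours r was 0.484 with FKBP5, 0.04 with TSC22D3 and 0.631 with ZBTB16, and in unspiked ones -0.191, 0.01 and -0.243. With DUSP1 SGK1 had r = 0.468 (adjusted permutation p = 0.096) and rho = 0.621 (adjusted 0.0344). The SGK1 and DUSP1 changes were thus related by rank, while r did not pass. The change of NR3C1, read from the probe set used, had no relation to any target that passed. Its highest r was 0.471, with DUSP1 (adjusted permutation p = 0.096). Other NR3C1 probe sets followed the one used at r = 0.09 and r = 0.55, and the other ZBTB16 probe set at r = 0.35. Relations of changes or levels with these other probe sets were not tested, so those of NR3C1 and ZBTB16 hold for the probe set used.

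The levels of FKBP5 and ZBTB16 were also related. After hyperthermia the pair had r = 0.818 (adjusted permutation p = 0.00021) and rho = 0.790 (adjusted 0.00063) over 21 tumours, and r was 0.768 without tumours 6 and 17. Before hyperthermia r was again 0.818 (adjusted permutation p = 0.00042), with rho = 0.778 (adjusted 0.00147), and r was 0.751 without tumours 4 and 5. Within the batches r was 0.441 in spiked tumours and 0.881 in unspiked ones after, and 0.411 and 0.896 before. Over all 21 tumours those with much FKBP5 transcript thus had much ZBTB16 transcript at both times. Both genes averaged higher in the spiked batch, and the permutations did not keep the batches apart. The values of r and p for levels over 21 tumours therefore include any difference in mean level between batches. Whether the batches differ in the relation was not tested. Of the 21 pairs of members 9 passed by r after hyperthermia and 2 before, and 7 and 1 by both r and rho. TSC22D3 and KLF9 had r = 0.781 after (adjusted permutation p = 0.00042) and rho = 0.569 (adjusted 0.0284), with r = -0.179 in spiked tumours, 0.971 in unspiked ones and 0.587 without tumours 13 and 17. ZBTB16 and KLF9 had r = 0.736 after (adjusted permutation p = 0.00154) and rho = 0.791, with 0.759 and 0.688 in the batches and 0.688 without tumours 4 and 17. The ZBTB16 and KLF9 relation was thus of like size in both batches, and that of TSC22D3 and KLF9 rests on the unspiked one. FKBP5 and the receptor NR3C1 had r = 0.667 after and 0.606 before (adjusted permutation p = 0.00318 and 0.0193), with rho = 0.688 (adjusted 0.00546) and 0.571 (adjusted 0.0869), so that the relation before treatment did not pass by rank. In spiked tumours r was 0.311 after and 0.016 before, and in unspiked ones 0.702 and 0.654. After hyperthermia the NR3C1 level also passed by r with TSC22D3 (0.631, adjusted permutation p = 0.00684) and ZBTB16 (0.588, adjusted permutation p = 0.0113). By rank the TSC22D3 relation passed (adjusted 0.0106) and the ZBTB16 one did not (adjusted 0.0972). With ZBTB16 r was -0.467 in spiked tumours and 0.849 in unspiked ones. The numbers of pairs after and before were not tested against each other.

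Beyond the 7 members, 2 of 40 other glucocorticoid-induced genes passed as higher and 0 as lower, where 4.02% of named genes passed as higher. Their median change was 0.01, the same as the 0.01 of all named genes. GADD45B, a stress-response protein that activates MAP kinase signalling, rose by 0.83 ± 0.20 (SE, limma adjusted p = 0.0135), in 16 of 21 tumours. It averaged 8.45 after and 7.62 before. MT2A, a metallothionein that binds zinc and copper, rose by 0.78 ± 0.22 (limma adjusted p = 0.0379), in 17 of 21 tumours. The MT2A call was lost without tumour 2, 3, 4, 7, 10, 11, 12, 16, 17, 20 or 21 (limma adjusted p up to 0.0709).

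Well-known targets of the list did not pass. PER1, a clock gene with receptor elements in its promoter, changed by -0.28 ± 0.11 (SE, limma adjusted p = 0.157), higher in 7 of 21 tumours. ERRFI1, an inhibitor of the EGF receptor, changed by 0.65 ± 0.22 (limma adjusted p = 0.0807), higher in 16 tumours. NFKBIA, the inhibitor of NF-kappaB, changed by -0.27 ± 0.15 (limma adjusted p = 0.349), higher in 8. CEBPD and NR3C2 were not analysed here. The count of the list depends on a few tumours: it was 9 without tumour 15, 7 without tumour 13, and 10 without both, all higher, where 5% of named genes passed as higher. Those tumours were left out with their earlier results known. Tumours 13 and 15 had the lowest median changes of this same list, -0.66 and -0.28. A higher count without them is thus partly built in. The 10 were RGS2, ERRFI1, ANGPTL4, PDK4, MT2A, BCL6, GADD45B, ANXA1, KLF6 and ZFP36.

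**Figure D5:**
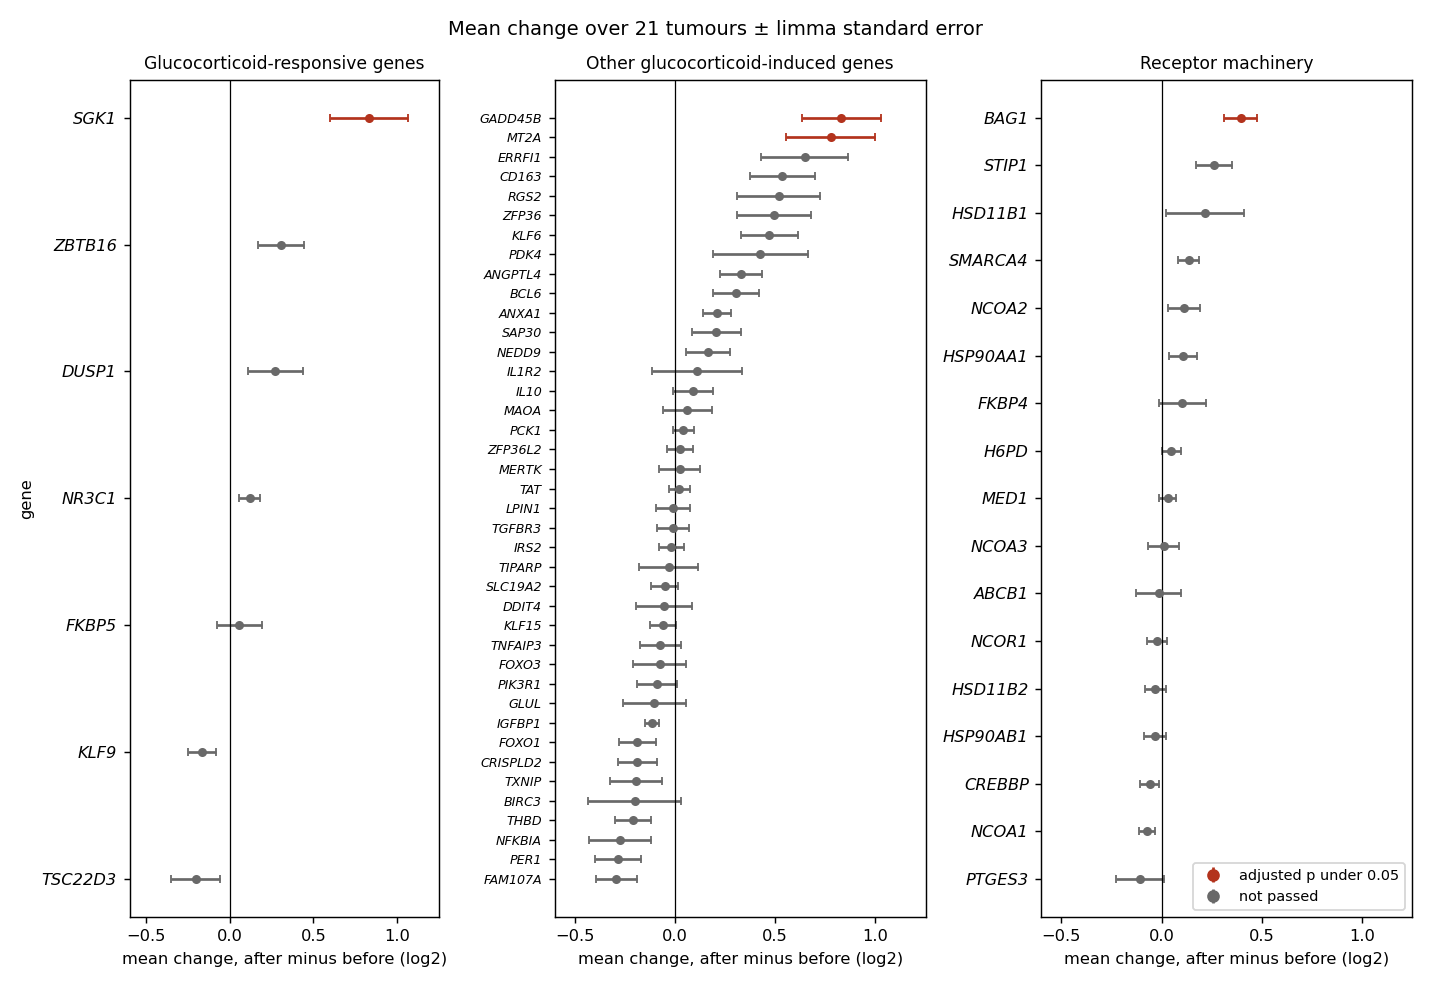
Mean change (log2, after minus before, points) ± limma standard error (bars) over 21 tumours for the 7 members, 40 other glucocorticoid-induced genes and 17 genes of the receptor machinery, sorted by change. Red points passed at an adjusted p under 0.05: SGK1, GADD45B, MT2A and BAG1.

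The machinery around the receptor comprises enzymes that make or remove active hormone, chaperones that hold the receptor, and coregulators. The 17 measured genes had a median change of 0.03. Of them 1 passed as higher and 0 as lower, against 4.02% and 3.13% of named genes. It was BAG1, a cochaperone of HSP70 that in mammalian cells can modulate receptor function, which rose by 0.39 ± 0.08 (SE, limma adjusted p = 0.00592) in 18 of 21 tumours, with 7.39 after and 7.0 before. HSD11B1 changed by 0.22 ± 0.19 (adjusted p = 0.610). HSD11B2, which inactivates cortisol, changed by -0.03 ± 0.05 (adjusted p = 0.806). FKBP4, the relative of FKBP5 that favours transport of the receptor to the nucleus, changed by 0.10 ± 0.12 (adjusted p = 0.718).

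Among 16 inflammatory genes that glucocorticoids are known to lower, 2 passed as higher and 1 as lower, with a median change of -0.04. The shares of all named genes were 4.02% higher and 3.13% lower. CXCL8, which attracts neutrophils, rose by 2.44 ± 0.67 (SE, limma adjusted p = 0.0304), in 14 of 21 tumours. MMP1, a collagenase, rose by 2.48 ± 0.57 (limma adjusted p = 0.0117), in 19 tumours, but in 1 tumour it changed by -6.84. CXCL10, which attracts T cells and is induced by interferon, fell by 0.96 (limma adjusted p = 0.0287), in 19 tumours. The CXCL8 call was lost without tumour 2, 3, 7, 10, 12, 16, 18, 20 or 21, and that of CXCL10 without tumour 20. Without tumour 20 the list had 1 call, and without tumour 13 it had 5.

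Relatives of the members in their own families gave no call, 0 of 31 by limma and 0 by the Wilcoxon signed-rank test, with 8 and 6 at an unadjusted p under 0.05. By limma 7.15% of all named genes were called, and their share at the unadjusted level is not given here. The list counted 1 without tumour 3, 15 or 19 and 2 without tumour 6 or 13. Of 14 immediate early genes, which like DUSP1 answer fast to stress, 2 passed as higher and 0 as lower, with a median change of 0.18. Among all named genes 4.02% passed as higher and 3.13% as lower. FOSL1, a subunit of AP-1, rose by 0.73 ± 0.12 (SE, limma adjusted p = 0.00138) in 18 of 21 tumours, and ATF3, a stress-induced transcription factor, rose by 0.88 ± 0.22 (limma adjusted p = 0.0179) in 16.

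Other cell types were read from marker lists. Of 15 T and NK cell markers 8 passed as lower and 0 as higher, where 3.13% of named genes passed as lower, with a median change of -0.23. Among them GZMA fell by 0.61, CD3D by 0.57 and GZMK by 0.45. Without the 5 tumours whose 3 prime to 5 prime contrast changed by more than 0.5, 6 of the 8 did not pass (CD3D, CD3E, CD3G, GZMK, NKG7 and KLRD1, limma adjusted p from 0.0917 to 0.265), while LCK and GZMA did. The CD3E call was also lost in 13 of 21 cases of a single tumour left out, and that of CD3G without tumour 1, 20 or 21. Of 11 macrophage markers MARCO rose by 1.86 and MSR1 by 0.52, CSF1R fell by 0.49, and the others did not pass (median change 0.20). Among all named genes 4.02% passed as higher and 3.13% as lower. The CSF1R call was lost in 13 of 21 cases of a single tumour left out, all but tumours 5, 6, 8, 9, 13, 15, 17 and 19, and in 9 of 14 other settings, among them array weights (limma adjusted p = 0.0666) and the Wilcoxon test (0.0806). Those of MARCO and MSR1 were lost in 0 of 21 such cases. In the other settings the MSR1 call was lost in 4 of 14, among them each batch alone, and the MARCO call in 1 of 14, the unspiked batch. No gene passed among 10 endothelial, 8 adipocyte, 9 skeletal muscle, 8 smooth muscle and pericyte and 6 keratinocyte markers, with median changes between -0.05 and 0.06. Mean levels of the T and NK cell list ran from 4.35 to 5.31 after and from 4.63 to 6.21 before. The part of these cells in the members' values was not tested.

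The genes whose change over 21 tumours was most like that of each member were taken from 7557 genes with a level above the median gene, as a description without a test. For DUSP1 they were FOS (r = 0.896), ERRFI1 (0.780) and EGR1 (0.755), of which FOS changed by a mean of 0.38 and EGR1 by 0.12, neither passing. For SGK1 they were GK, a glycerol kinase (0.845), CDYL, a chromatin protein (0.837), and CCL2 (0.832). CCL2 stands in the list of inflammatory genes that glucocorticoids lower, and its mean change of 0.98 did not pass (limma adjusted p = 0.0762). For TSC22D3 they were PER1 (0.819), KLF4 (0.792) and DZIP3 (0.756). For ZBTB16 they were TXNIP (0.820), TRIM45 (0.790) and PIK3R1 (0.781), all of which were lower without tumour 6, at 0.654, 0.538 and 0.617. For FKBP5 they were ZC3H7A (0.763), AKIP1 (0.742) and STARD6 (0.728). KLF9 had CA15 (0.800), PNP (0.783) and MAP1LC3B (0.779) nearest, and NR3C1 had GALK2 (0.757), MCUB (0.731) and ARPC1B (0.710). Of these 21 genes AKIP1 (mean change 0.41, limma adjusted p = 0.00754) and ARPC1B (0.33, adjusted p = 0.00307) rose in the mean over the 21 tumours.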

How the data were processed

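RNA of 21 dog sarcomas was measured after and before hyperthermia on 42 Affymetrix arrays. The deposited values are log2 levels made with RMA in Affymetrix software (Expression Console), per the submitters' processing notes, which name no version here, with array medians between 5.20 and 5.31. No genome build is given in the sources used here and no sequence is printed. The table has 43035 rows, and the 111 controls among them were not tested. Of the other 42924 probe sets, 29254 have 1 gene symbol, 439 several and 13231 none here; symbols were checked by identifier for 27680 and none changed. The probe set with the highest mean stood for a gene, which gives 15115 genes.

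Pairs were formed from the tumour code that opens each title, and after removal of group means each array correlated best with its own partner in 21 of 21 pairs (lowest pair r 0.438). Tests used limma 3.58.1 (R 4.3.3), tumours blocked, eBayes, Benjamini-Hochberg, two-sided, at 0.05. The fit and the relation test were checked on simulated data. Relations were measured by Spearman's rho beside Pearson's r, each with 100000 two-sided permutations (SciPy 1.17.1, NumPy 2.4.6 and pandas 2.3.3 under Python 3.11.15). Figures were drawn with Matplotlib 3.10.9. The batches were set from the mean of the poly-A controls, with a border at 5.38. How many arrays there are limits the precision.

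The members and gene lists were chosen with earlier results of these data known. Genes named are the members, the called genes of the other lists (with more than 6, the 3 largest in each direction), PER1, CEBPD, ERRFI1, NFKBIA, NR3C2, HSD11B1, HSD11B2 and FKBP4, and 3 like genes per member. Other genes, among them those of tumours 6 and 13 and those called without tumours 13 and 15, were named after their values were seen. Marker relations and tissue markers were also chosen then. The alternatives tried were no block, a random block, a level filter, a trended and robust prior, array weights, renewed quantile normalization, median centring, the contrast covariate, the Wilcoxon test, other probe sets, each batch, and left-out tumours.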

Additional observations from a re-analysis of the deposited data

How the results depend on the processing

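The changes of TSC22D3, ZBTB16, DUSP1 and KLF9 kept their sign and stayed unpassed under every alternative run. A kept sign is not a kept size. The second ZBTB16 probe set gave 0.00095 ± 0.052 (SE), which is no measurable rise. One other DUSP1 probe set gave 0.049 ± 0.098 (SE). FKBP5 turned to -0.028 with array weights, -0.074 in the spiked batch and -0.0060 without the 5 tumours whose 3 prime to 5 prime contrast changed by more than 0.5; with single tumours left out it ran from -0.031 (without tumour 6) to 0.11. A second NR3C1 probe set gave -0.014. SGK1 stayed higher throughout, from 0.73 to 0.93 with single tumours left out. It did not pass with no replicate block, that is without the pairing (0.83, limma adjusted p = 0.582), with a trended and robust prior (0.83, 0.0533), with the contrast covariate (0.70, 0.0901), by the Wilcoxon test (0.83, 0.119), in the spiked (0.96) or unspiked batch (0.74), without tumours of changed contrast (0.78, 0.108), or in its other probe sets (0.41 and 0.63). Under these same settings, other probe sets aside, 0 members passed, and the share of all named genes that passed in them is not given here. Among other genes, NFKBIA gave 0.060, PIK3R1 0.053 and FKBP4 -0.056 in the spiked batch, EGR1 -0.10 in the unspiked one, HSD11B2 0.0026 without tumours of changed contrast and TRIM45, with single tumours left out, from -0.0025 (without tumour 6) to 0.072.

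Counts of calls moved as follows. For these settings and left-out tumours the share of all named genes that passed is not given here. The exception is 5% as higher without tumours 13 and 15. With no replicate block MMP1, at an unadjusted limma p of 0.0003, had a limma adjusted p of 0.151. A lower count can thus go with fewer calls over the whole array and is not particular to a list. With no replicate block they were 0 for the other induced genes, 0 for the receptor machinery, 0 for the hormone-lowered genes and 1 for the immediate early genes. In the unspiked batch all of these were 0, and in the spiked batch machinery had 0 and relatives 2. With dim probe sets removed, other induced genes had 5, relatives 1 and immediate early genes 1. Array weights gave 7 other induced genes and 2 relatives, the trended prior 1 other induced gene, a random block 2 machinery genes, the covariate 1 relative and the Wilcoxon test 1 immediate early gene. Without tumours of changed contrast the counts were 1 other induced, 0 machinery, 0 hormone-lowered and 1 immediate early gene. Without tumours 13 and 15 they were 10, 2, 5 and 4, with 3 relatives. With single tumours left out they ran from 0 to 1 for members, 1 to 9 for other induced genes, 1 to 2 for machinery, 1 to 5 for hormone-lowered genes, 0 to 2 for relatives and 2 to 3 for immediate early genes. Other induced genes had 1 call without tumour 2, 3, 7, 12, 16 or 21, 4 without 6 or 8 and 5 without 5. Related pairs of members numbered 0 in the spiked batch, 1 without tumours of changed contrast, and 1 (without tumour 6) to 7 (without tumour 19) with single tumours left out. The causes were not tested.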
